A study of Mus musculus with 8 samples.

Results

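Axon guidance ligands and receptors are the cell-surface and secreted proteins that steer growing axons and migrating cells. The genes were taken by symbol from the annotation of the array: ephrins (Efna, Efnb) and their Eph receptors, semaphorins and plexins, slits and Robo receptors, and netrins with the receptors Dcc and Unc5a to Unc5d, leaving out Ephb4 and Efnb2. This gave 65 of 18193 named genes, each read through the probe set with the highest mean over all arrays. There were 34 ligands (20 semaphorins, 7 ephrins, 4 netrins and 3 slits) and 30 receptors (12 Eph receptors, 9 plexins, 5 netrin receptors and 4 Robo receptors). Plxna4os1, an antisense RNA of the plexin locus Plxna4, also carried a matching symbol and was the only entry that encodes neither a ligand nor a receptor.

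The samples were mouse embryo propers, that is, the embryo itself, either wild type or with Runx1 knocked out, taken at stages E8.5 and E12 from mice kept on a BalbC background. Runx1 encodes a transcription factor required for definitive blood formation. Each of the 4 groups had 2 Affymetrix whole-genome mouse arrays, which the study describes as biological replicates, and the labels do not say whether embryos were pooled for an array. All values below are log2 of the deposited intensity, and differences were tested with limma across 45037 probe sets, calling a gene where its p, adjusted by Benjamini-Hochberg, was below 0.05.

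Ephrins bind Eph receptors on the neighbouring cell and mostly repel, and both partners can signal. Semaphorins act through plexins, the secreted class 3 members usually together with a neuropilin. Slits repel through Robo receptors, and netrins attract through Dcc or repel through Unc5 receptors. The same families pattern blood vessels, somites and neural crest, so in a whole embryo their RNA does not come from neurons alone.

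Several array properties bear on every value that follows. Array medians lay between 4.96 and 5.01 for E8.5 embryos and between 5.16 and 5.20 for E12 embryos. The brightest probe sets differed more, with 99th percentiles of 12.2 to 12.3 and 10.5 to 11.1, and how the authors scaled the stages to each other is not known. Of the 6 Runx1 probe sets, 0 were lower in the knockout mean at E8.5 and 3 at E12. The sources used here do not say which exons the knockout removes, so these probe sets do not check the genotype, which is as labelled. The first wild-type array at E8.5 stood apart from the other E8.5 arrays: 6 measured trophoblast markers averaged 7.05 on it against 4.82 to 5.13 on the others, and 13 neuron markers averaged 4.28 against 4.77 to 4.93. The second wild-type array at E8.5 had the highest mean of 6 red cell markers at that stage, 10.17 against 7.80 to 8.13. In whole embryos, fewer cells of a type and less RNA per cell cannot be told apart.

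**Figure D1:**
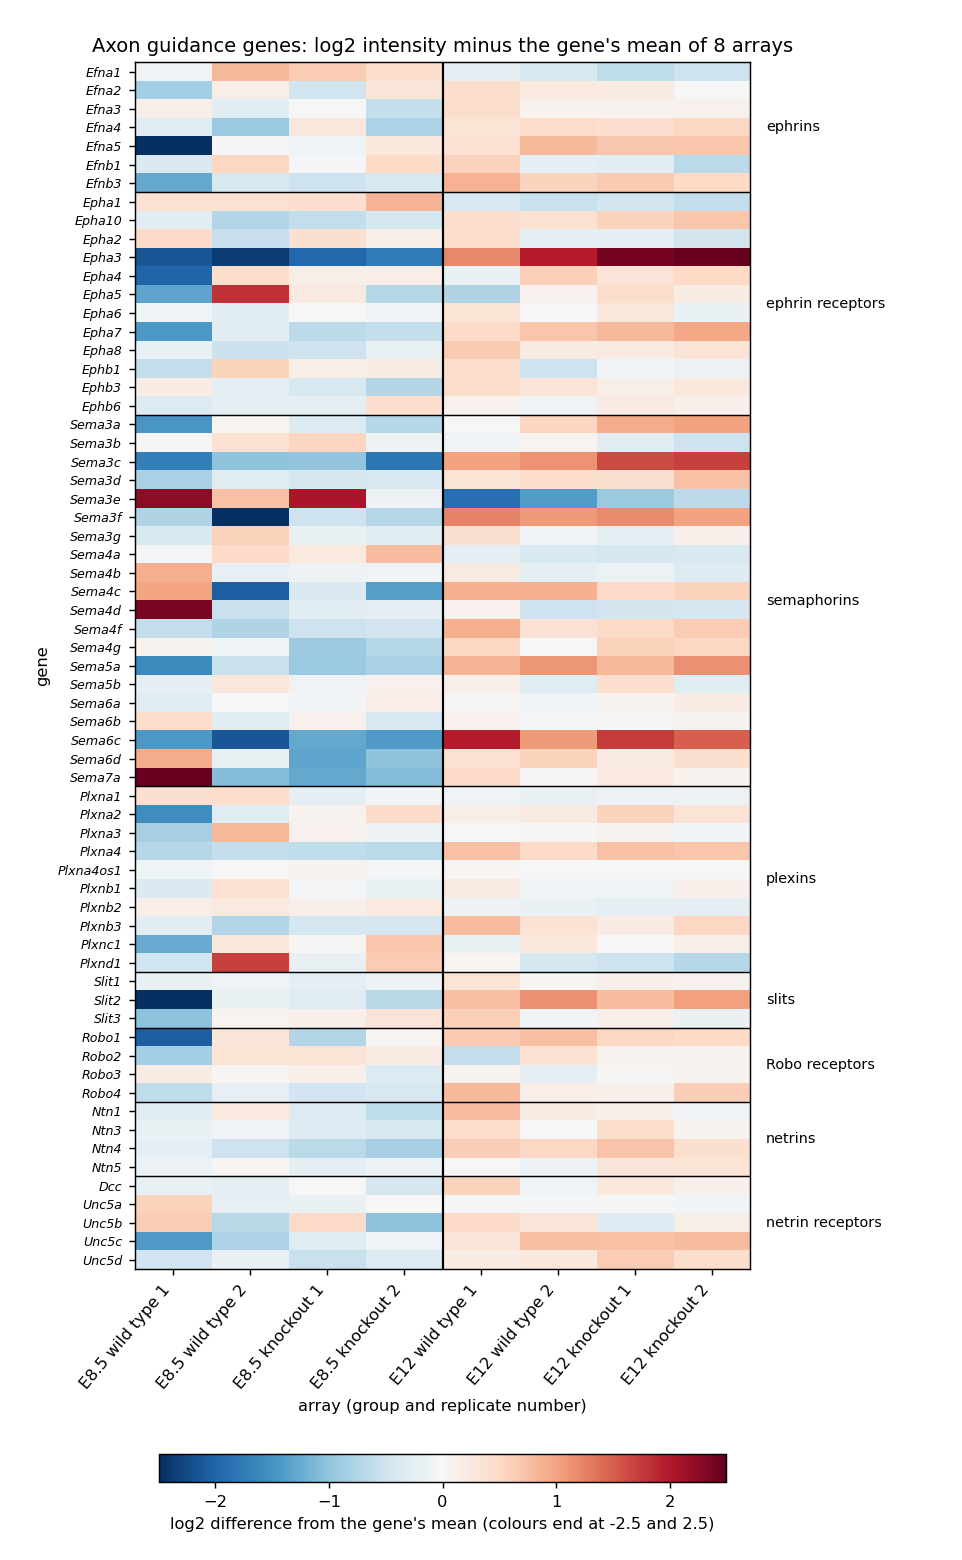
Each row is 1 of the 65 genes, ordered by family, and each column 1 of the 8 arrays. Colour gives the log2 intensity minus that gene's mean over the 8 arrays, blue for lower and red for higher. Epha3, Sema3c and Sema6c are blue on all 4 E8.5 arrays and red on all 4 E12 arrays.

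The first comparison asked how these genes differed between stages, separately in wild-type and knockout embryos. In wild type 15 of the 65 genes rose from E8.5 to E12 (23.1%, against 14.8% of all genes called higher) and 3 fell (4.62%, against 19.6%). In knockout embryos 16 rose (24.6%, against 13.8%) and 3 fell (4.62%, against 18.3%). The median difference of the 65 genes was 0.36 in wild type and 0.39 in knockout, where the medians of all genes were -0.01 and 0.01. A positive difference was found for 47 of the 65 genes in wild type and 48 in knockout, against 49.5% and 50.7% of all genes. With each array centred on its own median, 14 rose and 4 fell in wild type, and 12 rose and 4 fell in knockout. Under that centring the share of all calls that were higher dropped from 43.6% to 29.5% in wild type and from 45.1% to 28.3% in knockout, so counts in 1 direction depend on the unknown scaling.

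The 2 stage comparisons share no arrays. Of the 65 genes, 12 rose in both (11.1% of all genes did) and 1 fell in both (15.9% of all genes). The 12 were the Eph receptors Epha3, Epha7 and Epha10, the ephrin Efnb3, the semaphorins Sema3c, Sema3d, Sema4f, Sema5a and Sema6c, the plexin Plxna4, the netrin Ntn4 and the netrin receptor Unc5c, and the one that fell was Epha1. Another 5 genes were called in wild type alone and 6 in knockout alone. No test of the difference between the genotypes passed for any of these 11, as given further below.

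Of 34 ligands 8 rose in wild type and 9 in knockout. Semaphorins accounted for 6 of the 8 ligands that rose in wild type and 7 of the 9 that rose in knockout. Sema3c, a secreted semaphorin known from cardiac neural crest and outflow tract development, stood at 4.19 and 4.90 on the E8.5 wild-type arrays, 4.91 and 4.09 on the E8.5 knockout arrays, 6.90 and 7.01 on the E12 wild-type arrays, and 7.53 and 7.61 on the E12 knockout arrays. No E12 array came near an E8.5 array. The rise was 2.41 ± 0.33 (SE, limma adjusted p = 0.00439) in wild type and 3.07 ± 0.33 (adjusted p = 0.00249) in knockout. Since its E8.5 readings all lay below the medians of their arrays, no fold is given. A second Sema3c probe set rose too, by 0.78 and 0.57.

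Sema6c, a transmembrane semaphorin, read 7.67, 6.95, 7.83 and 7.68 on the E8.5 arrays (wild type, then knockout) and 11.06, 10.16, 10.85 and 10.60 on the E12 arrays. The stages were again far apart, with differences of 3.30 ± 0.36 (limma adjusted p = 0.00248) in wild type and 2.97 ± 0.36 (adjusted p = 0.00339) in knockout. The size differed between probe sets. Another Sema6c probe set rose by 2.42 and 2.57 and was called in both genotypes (limma adjusted p = 0.00962 and 0.00855). The only one made to match a single transcript differed by 0.70 and 0.39, which limma did not call in either genotype. That probe set was dim, reading 4.16 to 5.25 over the 8 arrays.

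Sema5a, a membrane semaphorin with thrombospondin repeats, rose by 2.05 ± 0.34 in wild type and 1.84 ± 0.34 in knockout (limma adjusted p = 0.00748 and 0.0111). Its 4 E12 arrays read 7.14 to 7.47 and its 4 E8.5 arrays 4.75 to 5.77. Its other 3 probe sets differed by 1.74, 1.51 and -0.07 in wild type and by 0.76, 1.51 and 0.14 in knockout. Limma called the differences of 1.74 and 1.51 in wild type (adjusted p = 0.00998 and 0.00723) and 1.51 in knockout (adjusted p = 0.00776). Sema4f, a class 4 transmembrane semaphorin, rose by 1.31 ± 0.21 and 1.05 ± 0.21 (limma adjusted p = 0.00687 and 0.0145). Sema3d, a secreted semaphorin whose gene lies next to Sema3a on chromosome 5, rose by 0.96 ± 0.22 in both genotypes. Sema3a itself, the best known repellent of the family, read 4.61, 6.13, 5.71 and 5.34 at E8.5 and was not called in either genotype.

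Sema3e went the other way. This secreted semaphorin acts on the vascular receptor Plxnd1 without a neuropilin. Its E8.5 arrays read 8.20 and 6.70 in wild type, against 7.999 and 5.81 in knockout. At E12 they read 4.07 and 4.57, then 5.03 and 5.32. On this brightest probe set all E8.5 arrays lay above all E12 arrays, but the E8.5 replicates were 1.50 and 2.19 apart. The other Sema3e probe sets differed by -1.90, -1.33 and -1.20 in wild type and by -1.18, 0.25 and 0.44 in knockout, none called. The brightest fell by 3.13 ± 0.76 in wild type (limma adjusted p = 0.026), while its knockout difference of -1.73 ± 0.76 was not called (adjusted p = 0.147). Without the first E8.5 wild-type array the wild-type difference was -2.38 and no longer called (limma adjusted p = 0.0572), and the call was lost in 5 of the 8 fits without 1 array.

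Sema3f gave a warning of another kind. Its brightest probe set rose by 2.77 ± 0.51 in wild type (limma adjusted p = 0.0107), but that probe set is of the kind that can cross-hybridize, and the probe set made for Sema3f alone differed by -0.26. Sema4a, called lower in knockout at -0.92 ± 0.25 (limma adjusted p = 0.0387), likewise differed by 0.18 on its other probe set. Neither direction is carried by all probes of its gene.

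Among the other ligands, Efnb3, a transmembrane ephrin known as a midline barrier to corticospinal axons, rose by 1.57 ± 0.30 in wild type and 1.02 ± 0.30 in knockout (limma adjusted p = 0.0117 and 0.048). Its E8.5 arrays read 5.71, 6.59, 6.48 and 6.63 and its E12 arrays 7.87, 7.56, 7.66 and 7.50. The knockout call was lost under 6 of 10 alternatives with all arrays (limma adjusted p up to 0.0811) and in 6 of 8 fits without 1 array (up to 0.218). Efna1, an ephrin first described in endothelium, fell by 1.11 ± 0.29 in knockout (limma adjusted p = 0.0364), with -0.68 ± 0.29 in wild type (adjusted p = 0.135). The other Efna1 probe set differed by only -0.23 in knockout and -0.09 in wild type and was called in neither. The knockout call of Efna1 was lost under 3 of 10 alternatives with all arrays (limma adjusted p up to 0.0883). Efna1 lies beside Efna3 and Efna4 on chromosome 3, and neither of these neighbours was called.

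Ntn4, a netrin of basement membranes, rose by 0.95 ± 0.19 and 1.31 ± 0.19 (limma adjusted p = 0.0131 and 0.00536), from 4.27 to 4.87 over the E8.5 arrays to 5.51 to 5.81 over the E12 arrays. Ntn1, the classic floor plate attractant, differed by 0.50 ± 0.28 and 0.51 ± 0.28 and was not called. None of the 3 slits passed on its brightest probe set. Slit2 had the widest difference there, 2.31 ± 0.70 in wild type (limma adjusted p = 0.0510) and 1.40 ± 0.70 in knockout (adjusted p = 0.192). Its E8.5 wild-type arrays were 2.40 apart, a spread that enters the SE of both genotypes. The Slit2 knockout arrays read 7.50 and 7.11 at E8.5 and 8.57 and 8.83 at E12. Another Slit2 probe set differed by 2.11 and 2.48, the second of which was called (limma adjusted p = 0.0457). The other Slit1 probe set rose from between 3.96 and 4.16 on the E8.5 arrays to between 5.01 and 5.38 on the E12 arrays, by 1.08 and 1.07, and was called in both genotypes (limma adjusted p = 0.00697 and 0.00769), against 0.31 and 0.29 on the brightest.

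**Figure D2:**
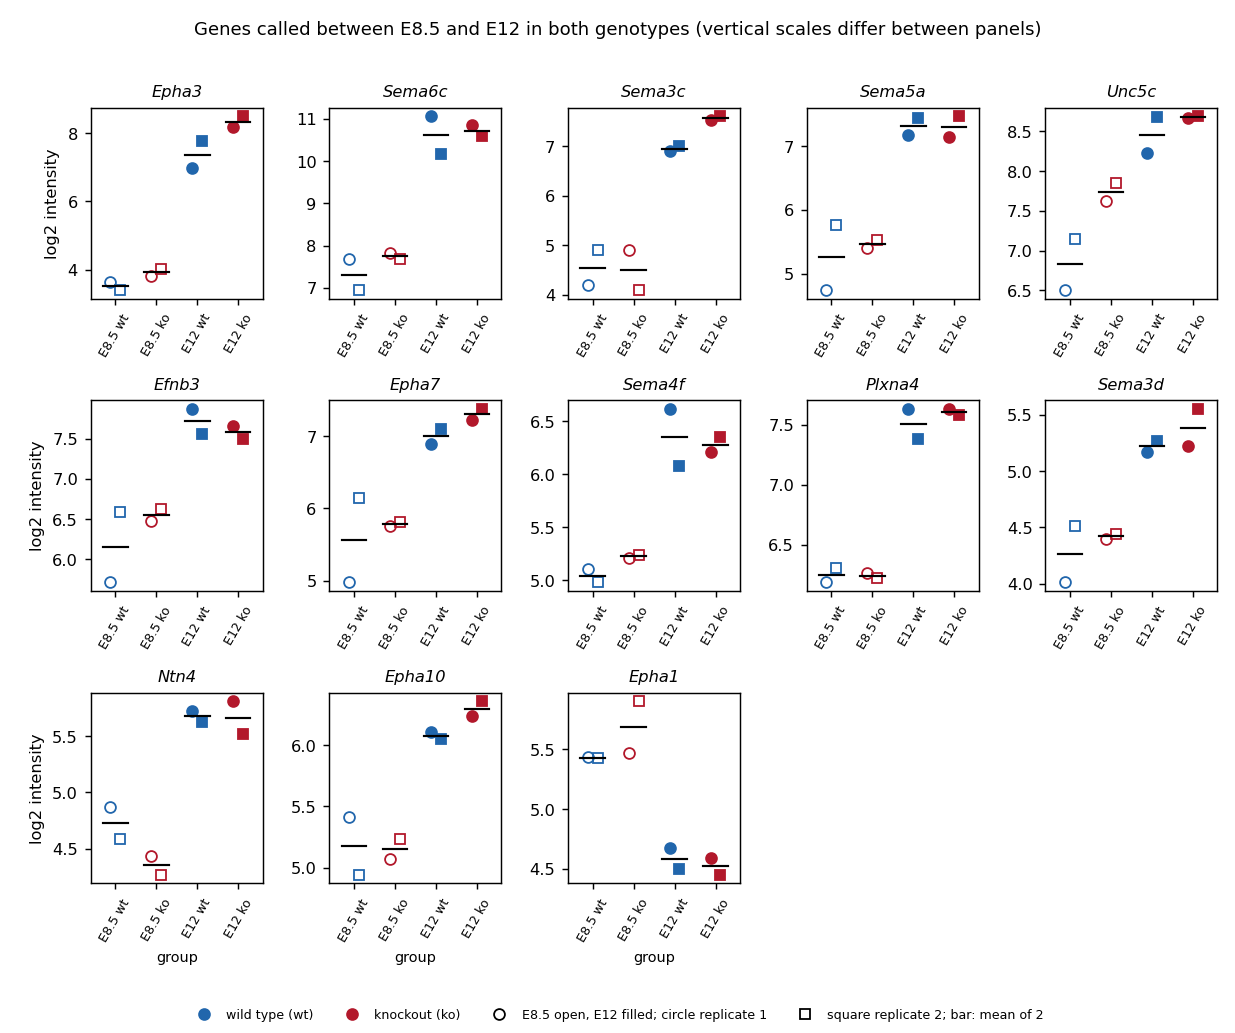
The 13 genes called between E8.5 and E12 in both genotypes, 1 panel each, with the group on the horizontal axis and log2 intensity on the vertical axis (scales differ between panels). Circles and squares are replicates 1 and 2, open for E8.5 and filled for E12, with wild type in blue and knockout in red, and bars are means of 2 arrays. In 12 panels all E12 arrays lie above all E8.5 arrays, and in Epha1 all lie below.

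Of 30 receptors 7 rose in each genotype. Epha3, an Eph receptor for A-class ephrins with roles in heart cushions and motor axons, had the widest difference of the 65 genes on the deposited values. Its brightest probe set (the gene lies on chromosome 16) read 3.64 and 3.41 on wild-type arrays of E8.5 and 3.83 and 4.01 on knockout ones, below the 25th percentile of those arrays (4.10 to 4.13). The files hold no detection calls, so it is not known whether these readings are above background, and no fold is given. The E12 arrays read 6.98 and 7.76 for wild type, then 8.19 and 8.496 for knockout. Every E12 array was far above every E8.5 array. It rose by 3.85 ± 0.28 in wild type (limma adjusted p = 0.00103) and 4.42 ± 0.28 in knockout (adjusted p = 0.000758). Its other 3 probe sets rose as well, one by 4.53 and 5.32, the other 2 by 0.46 to 1.16.

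Epha7, which splits into full-length and truncated receptors in neural tissue, rose by 1.44 ± 0.36 and 1.52 ± 0.36 (limma adjusted p = 0.0276 and 0.0252). The first E8.5 wild-type array had the lowest Epha7 reading, 4.98 against 5.75 to 6.14 on the other E8.5 arrays, and the wild-type rise was 0.86 without it. Leaving out single arrays lost the Epha7 call in 6 of 8 cases in wild type and 4 of 8 in knockout (limma adjusted p up to 0.101 and 0.136), and so did taking the mean over its probe sets, 0.76 and 0.74 (adjusted p = 0.0542 and 0.0638). Epha10, a receptor that lacks kinase activity, rose by 0.90 ± 0.20 and 1.15 ± 0.20 (limma adjusted p = 0.0183 and 0.00915).

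Epha8 rose in wild type by 0.80 ± 0.23 (limma adjusted p = 0.0428) with 0.63 ± 0.23 in knockout (adjusted p = 0.0917), and the Epha8 call was lost in 6 of 8 fits without 1 array and under 5 of 9 other alternatives (adjusted p up to 0.189 and 0.108). Ephb3 rose in knockout by 0.78 ± 0.21 (adjusted p = 0.0381) with 0.42 ± 0.21 in wild type (adjusted p = 0.182). Epha1, an Eph receptor of epithelia, read 5.43 to 5.90 over the E8.5 arrays and 4.45 to 4.67 over the E12 arrays. It fell by 0.84 ± 0.19 and 1.16 ± 0.19 (limma adjusted p = 0.0207 and 0.00817), but its other 2 probe sets differed by 0.13 and -0.11 in wild type and by 0.37 and 0.05 in knockout. With the mean over its probe sets the fall was not called in either genotype (-0.28 and -0.25, limma adjusted p = 0.211 and 0.268).

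Plxna4, a plexin of sensory and sympathetic neurons that carries class 3 and class 6 semaphorin signals, had the tightest replicates of the genes that rose. It read 6.18, 6.30, 6.26 and 6.22 on the E8.5 arrays, then 7.64, 7.39, 7.63 and 7.58 on the E12 arrays. The rise was 1.27 ± 0.16 and 1.37 ± 0.16 (limma adjusted p = 0.00345 and 0.00298), and the second probe set differed by 0.24 and 0.09, not called. Plxna4os1, the antisense RNA, stayed between 4.64 and 4.83 on the E8.5 arrays and averaged 4.76 over E12.

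Other plexins moved less. Plxnb3, an X-linked plexin of glia, rose by 1.07 ± 0.23 in wild type (limma adjusted p = 0.0184), with 0.79 ± 0.23 in knockout (adjusted p = 0.0512). Plxna1 fell by 0.56 ± 0.15 in wild type (limma adjusted p = 0.0321) and was level in knockout, with a difference that rounds to 0 and an SE of 0.15. Its wild-type E8.5 arrays read 6.71 and 6.74 and every other array lay between 6.08 and 6.23. The wild-type call was lost whichever of the 8 arrays was left out (limma adjusted p = 0.0557 to 0.0852) and under 5 of 9 other alternatives.

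Unc5c, a netrin receptor that mediates repulsion, read 6.51 and 7.15 on the wild-type arrays of E8.5, 7.62 and 7.85 on the knockout ones, and 8.22, 8.68, 8.66 and 8.69 over the E12 arrays. It rose by 1.63 ± 0.26 and 0.94 ± 0.26 (limma adjusted p = 0.00735 and 0.0437), although its other probe set differed by only 0.21 and -0.18. Unc5d rose in knockout by 0.99 ± 0.18 (limma adjusted p = 0.0109) and differed by 0.54 ± 0.18 in wild type (adjusted p = 0.0663). Dcc, the attractive netrin receptor, differed by 0.44 ± 0.26 and 0.40 ± 0.26 on its brightest probe set and was not called there. Its other 2 probe sets, which read 2.94 to 3.88 over the E8.5 arrays, rose by 2.13 and 1.68 in wild type and by 2.52 each in knockout, and limma called both in both genotypes (adjusted p = 0.00421 to 0.0131). None of the 4 Robo receptors was called, Robo4, the endothelial member, coming nearest with 0.91 ± 0.29 and 0.81 ± 0.29 (limma adjusted p = 0.0606 and 0.0878).

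The calls differed in how far they rested on single arrays. Of the 13 genes called in both genotypes, Epha3, Sema3c, Sema6c and Plxna4 were called in both whichever array was left out, and the other 9 lost a call in at least 1 such fit. Over all 18 named genes called in a genotype, 7 kept the call in every such fit in wild type and 4 in knockout. Under all other alternatives the calls of Epha3, Epha10, Plxna4, Sema3c, Sema4f and Sema5a held in both. Calls also depended on the probe set: 6 genes in wild type and 9 in knockout that were not called on the brightest probe set were called on another, among them Dcc, Efna2, Epha4, Plxna3 and Slit1 in both. Without the first E8.5 wild-type array, 19 genes rose and 5 fell in wild type, when 31.5% of all probe sets were called. In wild type the count of rising genes was lowest without the first E12 wild-type array. In knockout it was lowest without the first E12 knockout array. For each of these fits the share of all probe sets called higher was also below that with all arrays.

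**Figure D3:**
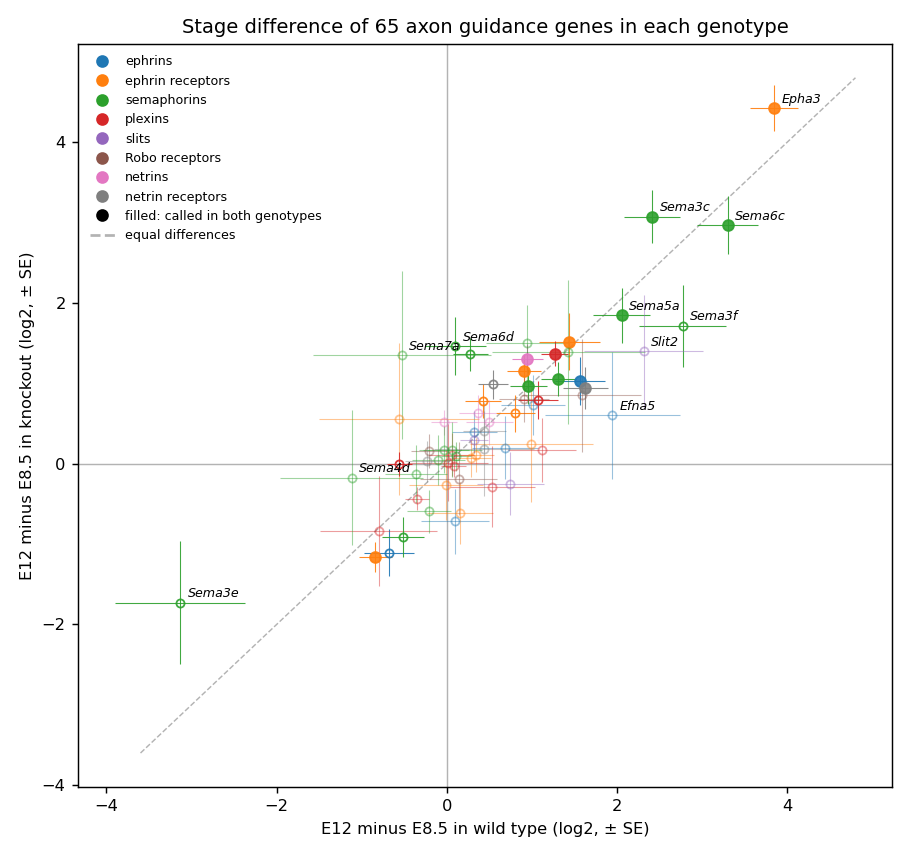
Stage difference (E12 minus E8.5, log2) of each of the 65 genes in wild type on the horizontal axis and in knockout on the vertical axis. Points are coloured by family, bars are ± 1 SE of the limma fit, filled points were called in both genotypes, and the dashed line marks equal differences. Epha3, Sema3c and Sema6c lie farthest to the upper right and Sema3e to the lower left, and 52 of the 65 genes have the same sign in both.

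Across the 65 genes the stage differences of the 2 genotypes correlated with r = 0.83, against 0.92 over all 18193 genes. This is a description across genes, which are not independent replicates. The 2 genotypes had the same sign for 52 genes.

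The other genes of the pathway were read from lists that, like the members, were chosen with earlier results known, and their counts stand against the shares of all genes given above (14.8% and 13.8% higher, 19.6% and 18.3% lower). Of 14 co-receptors, 6 rose and 0 fell in wild type, and 4 rose and 1 fell in knockout, with median differences of 1.02 and 0.74. Chl1 and L1cam, adhesion molecules that bind neuropilins, rose by 2.98 ± 0.28 and 1.76 ± 0.27 in wild type and by 3.40 ± 0.28 and 2.02 ± 0.27 in knockout. Of 14 other guidance cues and their receptors, 8 rose in wild type and 7 in knockout, and 0 fell, with medians of 1.83 and 1.25. Draxin, a secreted ligand of Dcc, rose by 2.21 ± 0.17 and 1.85 ± 0.17, and Boc, a sonic hedgehog receptor of commissural axons, by 2.24 ± 0.18 and 2.00 ± 0.18. Of 35 measured cytoplasmic transducers, 7 rose and 3 fell in wild type and 5 rose and 4 fell in knockout. Their median difference was -0.09 in wild type, where 14 of 35 were positive, and 0.16 in knockout. Pak3, a neuronal kinase downstream of Rac, rose by 4.01 ± 0.26 in knockout, and Rac1 itself fell by 1.91 ± 0.28 in wild type. The other genotype is not given here for either gene, so neither difference is read as particular to 1 genotype. The test of a difference between the genotypes called 0 of the 35 transducers.

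Cell type markers moved with the same stages. Of 13 neuron markers, 12 rose in each genotype, and their mean was 4.28 to 4.93 on the E8.5 arrays and 7.25 to 7.99 on the E12 arrays. Of 6 skeletal muscle markers, 5 rose in each, with list means of 4.90 to 5.06 before and 7.70 to 8.02 after. The mean of 7 visceral endoderm markers was 12.08 to 13.04 before and 6.92 to 7.26 after, with 6 falling in wild type and 7 in knockout. The part of these shifts in the differences of the guidance genes was not tested.

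The second comparison asked whether loss of Runx1 changed these genes at E12. In limma 0 of the 65 genes were called, where 5 of all 18193 genes (0.0275%) were, and the lowest adjusted p of a guidance gene was 1.00. At an unadjusted limma p below 0.05 there were 2 of the 65, Epha3 and Ntn5, and 713 of all 45037 probe sets. Knockout differences ran from -0.66 for Efnb1 to 0.97 for Epha3, with a median standard error of 0.29. The authors worked with a cutoff of 3 on the absolute moderated t, with no correction. Past it were 1 guidance gene, Epha3, and 0.973% of all genes. With each stage fitted alone, 4 guidance genes were past it at E12. The share of all genes is not given for that fit, so this count cannot be set against the 1 above.

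Epha3 was higher in both knockout arrays (8.19 and 8.496) than in both wild-type arrays (6.98 and 7.76) at E12, a difference of 0.97 ± 0.28 (limma unadjusted p = 0.0119). Over the arrays left out in turn it ranged from 0.58 to 1.36, and the 3 other probe sets differed by 0.14 to 0.65. Sema3c differed by 0.61 ± 0.33, Ntn5 by 0.39 ± 0.15, Unc5d by 0.31 ± 0.18 and Ntn1 by -0.46 ± 0.28. The other Sema3c probe set differed by -0.24 and the other Ntn1 probe set by 0.04, while Ntn5 and Unc5d have a single probe set. Counting genes whose 2 knockout arrays both lay beyond the 2 wild-type arrays, 13 were higher (20%, against 12% of all genes) and 12 lower (18.5%, against 18.6%). The median difference was -0.03, and 40 of 65 differences were negative (51.2% of all genes). Means of 6 macrophage markers were 6.35 and 6.43 in wild type, against 5.11 and 5.14 in knockout at this stage, and their part in the values of the guidance genes was not tested. Of 13 neuron markers, 0 were called at E12, but 12 were higher in knockout, with a median difference of 0.39 against -0.01 over all genes. Their mean stood at 7.25 and 7.89 on the wild-type arrays, against 7.86 and 7.99 on the knockout arrays. It was lowest on the first wild-type array, where Epha3 was lowest too. The part of this in the values of Epha3, Sema3c and Unc5d was not tested either.

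At E8.5 limma called 0 of the 65 genes and 0 of 45037 probe sets, 0% of each. The lowest adjusted p of a guidance gene was 0.982. An unadjusted p below 0.05 was found for 6 of the 65, and for 2132 of all 45037 probe sets. Past an absolute t of 3 were 5 genes, where 2.31% of all genes were. Lower in knockout were Sema6d, Plxna1 and Sema4g, and higher were Plxna2 and Unc5c.

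Sema6d, a transmembrane semaphorin of heart and spinal cord, read 7.60 and 6.48 in wild type, against 5.35 and 5.66 in knockout, a difference of -1.53 ± 0.36. Without the first wild-type array the difference was -0.97. The other 3 Sema6d probe sets differed by -0.30, -0.04 and 0.12, and the mean over all 4 by -0.44. Sema4g, a class 4 semaphorin, read 6.61 and 6.42 in wild type, against 5.62 and 5.81 in knockout, -0.79 ± 0.21, with replicates close together in both genotypes. Plxna1, the shared plexin of class 3 semaphorins, read 6.71 and 6.74 against 6.08 and 6.23, -0.56 ± 0.15.

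Plxna2, a plexin of the cerebellum and neural crest, read 5.50 and 6.76 in wild type, against 7.14 and 7.53 in knockout, 1.21 ± 0.40, and 0.58 without the first wild-type array. Its other 3 probe sets differed by -0.65, -0.04 and 0.60, and the mean over its probe sets by 0.28. Unc5c, whose E8.5 values are given above, differed by 0.91 ± 0.26, and by 0.59 without that array. For each of the 5 genes the 2 genotypes did not overlap at E8.5. Groups did not overlap for 9 genes higher in knockout (13.8%, against 13.5% of all genes) and 8 lower (12.3%, against 15.6%).

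**Figure D4:**
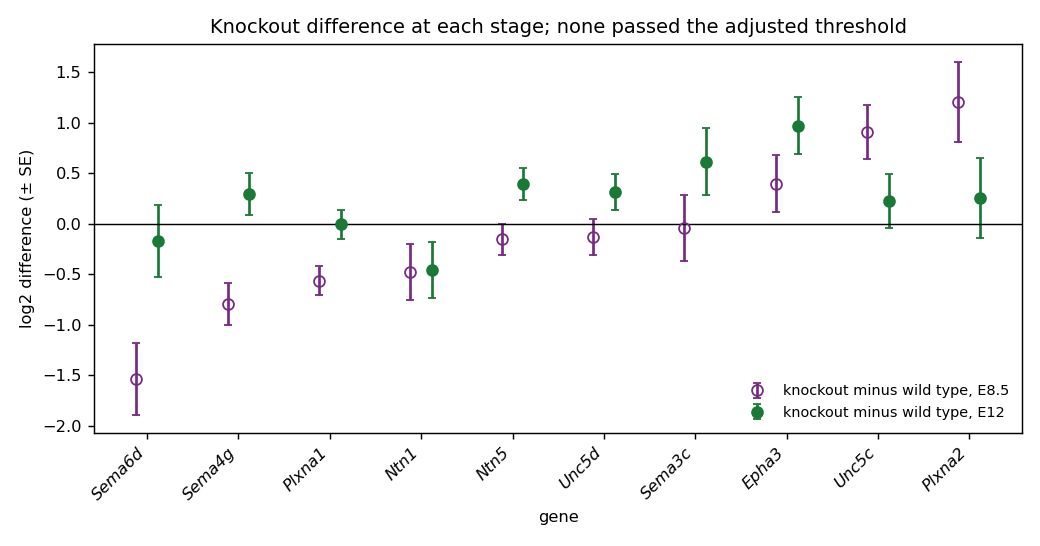
Knockout minus wild type (log2, ± 1 SE of the limma fit) at E8.5 in open circles and at E12 in filled circles, for the 10 genes named in the knockout comparisons or their difference. Sema6d lies lowest, -1.53 at E8.5, and Epha3 reaches 0.97 at E12. No value passed the adjusted threshold.

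The first wild-type array at E8.5 stood apart for the guidance genes too. On it 8 guidance genes were lower than on any other E8.5 array by over 1 log2 unit (3.52% of all genes were): Efna5, Epha4, Slit2, Slit3, Robo1, Robo2, Plxna2 and Plxnc1. Another 4 were higher by over 1 (3.43% of all genes), the semaphorins Sema4c, Sema4d, Sema6d and Sema7a. Sema7a, a membrane-anchored semaphorin also known from immune cells, read 9.39 there and 5.67, 5.47 and 5.67 on the other 3 arrays. Efna5, a repulsive ephrin of retinal maps, read 5.32 there and 7.95 to 8.32 elsewhere. Slit2 read 5.23 against 7.11 to 7.63, and its receptor Robo1 4.53 against 5.85 to 6.89. These are readings of the brightest probe sets, and dimmer ones did not all set this array apart. The other probe set of Sema7a read 3.79 there against 3.49 to 3.70, and that of Efna5 3.79 against 3.52 to 3.96. The other Slit2 probe sets read 3.64 against 3.62 to 3.84 and 3.73 against 4.18 to 5.07. Those of Robo1 read 4.07 against 3.90 to 4.47 and 4.09 against 4.18 to 4.55.

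The E8.5 wild-type replicates were over 1 log2 unit apart for 25 of the 65 genes (38.5%, against 18.6% of all genes). The E8.5 knockout replicates were that far apart for 4 genes (3.1% of all genes), the E12 wild-type replicates for 1 (4.51%) and the E12 knockout replicates for 0 (0.0824%). Replicates of the E8.5 wild type had a median absolute difference of 0.72, and those of the other groups 0.20, 0.31 and 0.15 in the same order. The knockout mean lay above 1 wild-type array and below the other for 37 of the 65 genes. Setting the knockout arrays against the first wild-type array alone, limma called 7 guidance genes higher and 3 lower, with 4.31% of all probe sets called, and against the second alone it called 0.

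**Figure D5:**
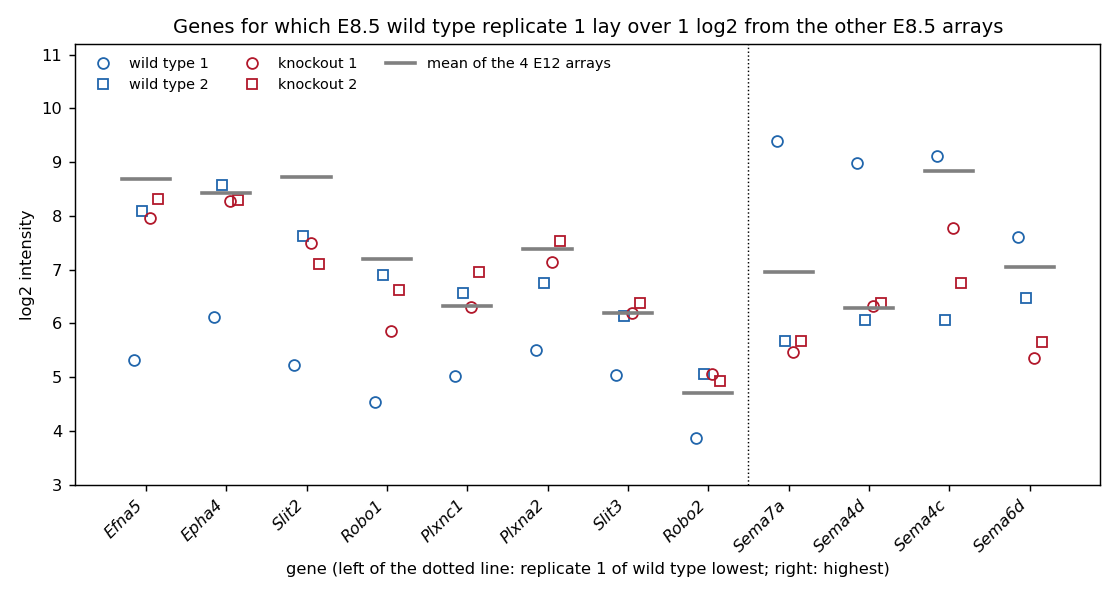
Log2 intensity on the 4 E8.5 arrays, for the 12 genes for which the first wild-type array lay over 1 log2 unit from the other 3, lowest on the left of the dotted line and highest on the right. Blue is wild type, red is knockout, circles and squares are replicates 1 and 2, and grey bars are the mean of the 4 E12 arrays. Apart from the first wild-type array, the E8.5 arrays of Efna5, Epha4 and Slit3 lie close together, and levels of different genes cannot be set against each other.

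The second wild-type array at E8.5 was the highest by over 1 for Epha5, a receptor of forebrain maps (6.78 against 3.66, 5.20 and 4.27), and for Plxnd1, the endothelial plexin (8.08 against 5.87, 6.18 and 6.998). It was the lowest for Sema3f, 7.47 against 9.23 to 9.46.

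Whether the knockout difference depended on the stage was tested as an interaction. In limma 0 of the 65 genes were called, where 0.011% of all genes were. At an unadjusted p below 0.05 were 4 of the 65, and 842 of all 45037 probe sets. Sema4g had the highest t, with a knockout difference 1.08 ± 0.29 greater at E12 than at E8.5 (limma unadjusted p = 0.00867, adjusted p = 1.00). The values for Sema6d, Plxna1 and Ntn5 were 1.36 ± 0.50, 0.56 ± 0.21 and 0.55 ± 0.22, and for Unc5c -0.69 ± 0.37. These are the tests that bear on the genes called between stages in 1 genotype alone, such as Sema4g and Sema6d. Those genes rose by 1.36 ± 0.21 and 1.46 ± 0.36 in knockout (limma adjusted p = 0.00653 and 0.028). In wild type they differed by 0.27 ± 0.21 and 0.10 ± 0.36. For Sema6d this holds on the brightest probe set alone. Its other probe sets differed by 0.07, 0.72 and 0.70 in wild type and by 0.27, 0.52 and 0.73 in knockout. Of these, limma called the wild-type difference of 0.72 (adjusted p = 0.0321).

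The promoters were read because the knocked-out protein is a DNA-binding factor. RefSeq sequences (build GRCm38.p6) from 250 bases before to 50 after the start were found for 54 of the 65 genes, 70 promoters in all. The letters TGTGGT or TGCGGT, the core that RUNX proteins recognise, were looked for on both strands. They stood in 15 of the 70 promoters (21.4%), against 21.6% of 21255 promoters of protein-coding genes. The guidance promoters had a median GC content of 64%, against 56.3%. Shown are the 2 genes with a match among those past a t of 3 at E8.5, Sema6d and Unc5c, and Epha3, which differed most between stages and holds no match. Each reads 5′ to 3′ on the strand of the gene, with the matched letters in capitals.
Sema6d promoter, chr2:124653331-124653630, plus strand: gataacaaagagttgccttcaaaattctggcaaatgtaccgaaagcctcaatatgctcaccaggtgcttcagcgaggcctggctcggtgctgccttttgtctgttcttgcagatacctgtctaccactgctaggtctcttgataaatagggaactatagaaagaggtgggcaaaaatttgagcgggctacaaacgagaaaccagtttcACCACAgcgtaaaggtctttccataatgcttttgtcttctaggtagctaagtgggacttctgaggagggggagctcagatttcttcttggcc
Unc5c promoter, chr3:141465314-141465613, plus strand: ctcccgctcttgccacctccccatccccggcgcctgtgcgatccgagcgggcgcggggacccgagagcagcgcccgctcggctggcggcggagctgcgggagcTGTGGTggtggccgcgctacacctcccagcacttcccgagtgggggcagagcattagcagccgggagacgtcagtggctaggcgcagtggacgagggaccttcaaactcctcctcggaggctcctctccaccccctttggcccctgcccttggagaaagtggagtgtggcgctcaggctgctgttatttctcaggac
Epha3 promoter, chr16:63864126-63864425, minus strand: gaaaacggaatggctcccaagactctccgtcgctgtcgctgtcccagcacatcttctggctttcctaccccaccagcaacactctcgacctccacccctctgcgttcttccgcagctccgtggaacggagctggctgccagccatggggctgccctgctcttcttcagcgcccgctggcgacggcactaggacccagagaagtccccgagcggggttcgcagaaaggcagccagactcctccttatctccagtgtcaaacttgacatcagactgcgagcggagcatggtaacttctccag
The Sema6d match starts 42 bases before the start of transcription and reads TGTGGT on the other strand, and the Unc5c match starts 147 bases before it. A second Sema6d promoter in the table held no match, nor did those of Plxna2 and Sema4g. No promoter sequence was found for Plxna1, also past a t of 3 at E8.5, so it was not searched. A match describes these letters and is not a binding site.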

How the data were processed

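RNA of 8 embryo samples was hybridized to Affymetrix whole-genome mouse arrays of 1 colour. The authors ran Robust Multi-array Analysis (background correction, normalization and a summary per probe set) and deposited linear-scale intensities. Whether all arrays were normalized together is not given in the sources used here, and the precision is limited by 2 arrays per group. Every deposited intensity was converted to log2, adding no pseudocount. The 64 control probe sets of 45101 were left out. Genes were named by the platform annotation, with a RefSeq table for newer symbols: 34945 probe sets had 1 symbol, 932 several and 9160 none, and those with several or none were not named. The 65 genes had 139 probe sets, of which the one with the highest mean over the 8 arrays stood for its gene.

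The model in limma 3.58.1 (lmFit, eBayes; R 4.3.3) held 4 group means over all 8 arrays, and p-values were adjusted by Benjamini-Hochberg over 45037 probe sets. A difference was called at adjusted p below 0.05, and such p-values cover only the spread between these samples, which may be technical. Percentages of all genes use 1 probe set per gene, 18193 in all. The fit was tested on simulated data in which each probe set had the same spread on all arrays. That test cannot show how the fit handles groups of unequal spread, as these are. Genes with tests were named where called (the first 15 each way by size in a stage comparison) or past an absolute t of 3, otherwise the 5 with the highest t; Ephb3, the 16th to rise in knockout, was added after its values were seen, as were the genes described for the spread at E8.5. Genes of the other lists were named by highest t, at most 4 a list. The genes and lists were chosen with earlier results of these data known. Alternatives were quantile normalization, median centring, a filter on dim probe sets, an added constant of 16, array weights and an intensity trend. Others were the mean over probe sets, probe sets without suffix, a replicate block and leaving out each array. The knockout comparisons were also fitted on each stage alone.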

Additional observations from a re-analysis of the deposited data

How the results depend on the processing

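The knockout comparisons at both stages and their difference called 0 guidance genes under every alternative that kept all 8 arrays. With each stage fitted alone, the knockout comparisons also called 0 guidance genes. In those fits 4 guidance genes at each stage passed an absolute t of 3. The share of all genes past it is not given there, so these counts cannot be set against those of the fit of all arrays. Leaving out single arrays gave 0 to 7 higher and 0 to 3 lower at E8.5, 0 to 3 higher and 0 to 2 lower for the difference between stages, and 0 of each at E12, and the nonzero counts all came without the second E8.5 wild-type array. In the stage comparisons, leaving out single arrays gave 7 to 26 higher and 0 to 6 lower in wild type and 4 to 24 higher and 0 to 3 lower in knockout. A fit with 1 sample left in a group assumes that it varies like the others. With all arrays, 12 to 19 guidance genes were higher in wild type and 12 to 24 in knockout. The share of all probe sets or genes called higher moved as well. In wild type it was 6.61% where 12 rose (array weights) and 14.9% where 19 did (mean over probe sets). In knockout it was 7.22% where 12 rose (median centring) and 20.9% where 24 did (array weights). The counts lower in wild type were 0 with array weights and 1 with the mean over the probe sets of a gene, and in knockout 5 and 1. Without probe sets bearing a suffix for shared transcripts, Sema3f reversed to -0.26 in wild type and Sema4a to 0.18 in knockout. With the replicate number as a block, the stage counts stayed at 15 higher and 3 lower in wild type and 16 and 3 in knockout, and the knockout comparisons at 0. Deviations of same-numbered arrays correlated with r = 0.17 at E12, 0.37 at E8.5, 0.08 in wild type and -0.11 in knockout. Each r rests on a single replicate difference per group. Neither the labels nor every one of these values ties the numbers together, so they were not taken as a pairing. The values within a stage were positive at E8.5 and at E12. A crossed pairing in knockout, chosen after seeing the data, gave 17 higher and 2 lower. The cause of these changes was not tested. Dim genes limit what can be seen, since 6 of the 65 lay below the array median on all 8 arrays.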
